A study of Mus musculus with 4 samples.

Results

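A group of 9 genes that adipose biologists use to tell subsets of adipose progenitor cells apart were followed through the 4 libraries. The 9 genes, Dpp4, Pi16, Cd55, Anxa3, Ly6c1, Ly6a, Icam1, F3 and Clec11a, were chosen by name from 31054 features, and all 9 were present in the count tables. The cells came from the stromal vascular fraction, the non-adipocyte cells, of gonadal white adipose tissue of male p16-CreERT2/R26-LSL-tdTomato mice aged 18 months. Under tamoxifen, a Cre recombinase driven by the p16 promoter turns on tdTomato, a red fluorescent reporter, and the mice of the study were killed 2 weeks after tamoxifen. All 4 groups shared this genotype, age and treatment, and differed in the sort. CD45, a leukocyte surface protein, and tdTomato (Tom) each divided the cells, and values are given in the order CD45- Tom+, then CD45- Tom-, then CD45+ Tom+, then CD45+ Tom- unless stated. The label marks cells in which the promoter was active when tamoxifen was given, and how many mice made up each library is not given in the sources used here. Each group was 1 library, so no difference has a replicate check, no test was made, and what is compared is libraries and not conditions. Intervals are given at 95% and reflect counting alone, of molecules for levels and ratios and of cells for shares.

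The sort labels were checked first. The share of kept cells with a transcript of Ptprc, the gene for CD45, was 80.3% in the library labelled CD45- Tom+, 49.3% in CD45- Tom-, 78.8% in CD45+ Tom+ and 52.1% in CD45+ Tom-. Libraries that differed only in the CD45 label were therefore alike in Ptprc, against the label, and are called below by their labels without reading CD45 status from them. The extraction protocol in the labels, in its list of sorted cells, names CD45- Tom- cells at 2 places and CD45+ Tom- cells nowhere, so the groups rest on the group label of each library. Over all kept cells the tdTomato label held: 93.1% and 91.1% in the Tom+ libraries carried the transcript, against 21.6% and 25.1% in the Tom- libraries.

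Progenitors were taken as cells with at least 2 UMIs (unique molecular identifiers, each 1 captured transcript) of Pdgfra, at most 1 of Ptprc, and at most 2 of the mesothelial genes Upk3b and Msln together. This left 319 of 3886 kept cells (8.21%) in CD45- Tom+, 1537 of 3674 (41.8%) in CD45- Tom-, 155 of 1927 (8.04%) in CD45+ Tom+ and 1708 of 4391 (38.9%) in CD45+ Tom-, or 3719 of 13878 in all. Their median depth was 24498, 22219, 26647 and 24323 UMIs a cell in the same order. The tdTomato transcript was found in 87.5%, 17.8%, 76.1% and 20.1% of gated cells, so label and transcript did not match in every gated cell. The sort read the protein and not the transcript, and the cause of the mismatch was not tested. The collagen and matrix genes Col1a1, Col1a2, Col3a1, Dcn and Lum were detected in 91.6 to 100% of gated cells in every library, so the gate held stromal cells. The Tom+ gates also held other signals. The summed level of 6 plasma cell markers was 2342 and 1919 CPM (counts per 1000000 UMIs, summed over the cells of a library) in the gated Tom+ cells against 315.5 and 313.7 in the Tom- cells, and 90.3%, 16.5%, 82.6% and 15.5% of gated cells, in library order, carried at least 3 of these markers. None of the 6 plasma markers was at 0 in any library. The 7 mesothelial markers summed to 357.2 and 397.9 in Tom+ against 236.5 and 232.6 in Tom-, the 7 macrophage markers to 116.7 and 78.0 against 60.6 and 51.8, and 3 markers of Cxcl13-expressing stroma to 640.8 and 1516 against 333.4 and 540.8. The Tom- libraries shared 4394 barcodes with each other, and 781 of the 1537 and 719 of the 1708 gated Tom- cells carried a barcode that the other Tom- library also holds, though only 2 barcodes were gated in both. Counting any other library, the share of gated cells with such a barcode was 21.6%, 51.6%, 17.4% and 43.3%.

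Adipose progenitors are fibroblast-like cells that carry the receptor PDGFRA and give rise to preadipocytes and then adipocytes. In mouse fat, cells with DPP4 and PI16 lie in the connective tissue around the depot and are described as multipotent, ICAM1 marks progenitors committed to becoming adipocytes, and F3, also called CD142, marks cells described as restraining the adipogenesis of their neighbours. In gonadal fat, LY6C1 has been used to separate fibro-inflammatory progenitors from adipocyte precursors, and LY6A, also called Sca-1, is a general sorting marker of progenitors. The other genes have known molecular roles: Cd55 encodes a membrane protein that restrains complement, Anxa3 a phospholipid-binding annexin, and Clec11a a secreted C-type lectin that acts as a growth factor and so is not anchored in the membrane. On mm10, by the GENCODE vM21 annotation, Dpp4 lies at chr2:62330073-62412231, Pi16 at chr17:29317680-29330593, Cd55 at chr1:130439027-130462744, Anxa3 at chr5:96793339-96845966, Icam1 at chr9:21015985-21028817, F3 at chr3:121723537-121735048 and Clec11a at chr7:44302687-44306902. The Ly6 genes neighbour each other on chromosome 15, Ly6a at chr15:74994877-74998031 and Ly6c1 at chr15:75044018-75048830. All 9 are protein-coding, and their values count the transcript ends assigned to each gene, not divided by its length.

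Among the genes of the interstitial, multipotent state, Dpp4, a membrane peptidase that clips dipeptides from peptide hormones and chemokines, was the scarcer. Its level in gated cells was 23.0 CPM (19.9 to 26.5) in CD45- Tom+, 37.9 (35.9 to 39.9) in CD45- Tom-, 18.8 (14.9 to 23.4) in CD45+ Tom+ and 41.5 (39.6 to 43.5) in CD45+ Tom-. Pi16, a membrane-anchored peptidase inhibitor, stood at 67.0 (61.6 to 72.7), 159.2 (155.2 to 163.4), 42.3 (36.3 to 48.9) and 152.3 (148.7 to 156.0) in the same order. For both genes the Tom- libraries were close to each other and above both Tom+ libraries. When every cell was thinned to 5000 UMIs, so that shares could be compared at equal depth, Dpp4 was detected in 7.30%, 12.0%, 8.44% and 12.8% of gated cells and Pi16 in 12.7%, 21.4%, 11.0% and 21.6%. Without thinning the shares were 20.1%, 25.4%, 25.8% and 27.8% for Dpp4 and 23.5%, 37.9%, 21.9% and 39.3% for Pi16. In the thinned cells, the 10% of gated cells with the most Dpp4 held 87.2 to 100% of its UMIs over the 4 libraries. The top 10% for Pi16 held 82.5 to 96.8%, and that for Clec11a 87.5 to 100%. With so few cells detected at this depth, such values are nearly fixed and are not read as concentration in few cells. T-like cells, at median depths of 6017 to 7836 UMIs, held Pi16 in at most 2.13% of cells in any library.

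Cd55 and Anxa3 were found in more cells than Dpp4 or Pi16. Cd55 was at 116.2, 159.5, 100.5 and 144.8 CPM and Anxa3 at 100.1, 158.6, 88.6 and 172.2, in library order. Both were higher in each Tom- library than in each Tom+ library. In thinned cells Cd55 was detected in 26.3 to 32.4% of gated cells over the libraries and Anxa3 in 20.8 to 37.9%. For Cd55 the highest detection, 32.4%, was in CD45- Tom- and the second highest, 30.5% (23.4 to 38.4), in CD45+ Tom+, so its share of cells did not separate the Tom groups although its level did.

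The Ly6 genes, which encode small proteins held in the membrane by a lipid anchor, were broader. Ly6c1 was at 163.2, 266.5, 126.1 and 276.6 CPM and was detected in 29.5%, 48.4%, 29.2% and 52.4% of thinned gated cells. Ly6a was at 510.1, 711.6, 406.4 and 727.1 CPM and was detected in 62.5%, 82.4%, 58.4% and 81.2%. Ly6a thus marked most gated cells in each library, and both genes were higher in the Tom- libraries. Ly6c1 has a near-identical neighbour, Ly6c2, which moved the other way: 53.1 and 28.2 CPM in the gated Tom+ cells against 2.04 and 1.68 in the Tom- cells. Reads of the copies can be assigned to the wrong one, so their split is uncertain. In plasma-like cells Ly6c2 was at 489.6, 276.8, 477.8 and 364.4 CPM, and its part in the gated Tom+ cells was not tested apart from the plasma markers given above. Cd55b, the copy of Cd55, had 2 UMIs or fewer in the gated cells of each library.

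Icam1, the adhesion receptor for leukocyte integrins and the marker of committed preadipocytes, was at 116.8 (109.6 to 124.3), 125.7 (122.1 to 129.4), 98.4 (89.2 to 108.3) and 126.7 (123.4 to 130.1) CPM. It was the member spread most evenly over libraries after Clec11a, and it was detected in 36.5%, 40.3%, 29.2% and 40.5% of thinned gated cells. F3, the tissue factor that starts coagulation, was at 271.5 (260.5 to 282.8), 341.3 (335.4 to 347.4), 207.9 (194.4 to 222.0) and 359.6 (354.1 to 365.3) CPM and was detected in 48.6%, 62.3%, 44.8% and 64.7%. Macrophage-like cells, at median depths of 18484 to 22435 UMIs, held F3 in 6.49%, 12.7%, 4.69% and 12.8% of cells without thinning, against 70.9%, 85.4%, 67.1% and 87.7% in the gate. Clec11a was at 27.6 (24.2 to 31.4), 33.5 (31.7 to 35.5), 31.7 (26.6 to 37.5) and 30.4 (28.8 to 32.1), and its intervals overlapped between all libraries but the pair labelled CD45-.

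**Figure D1:**
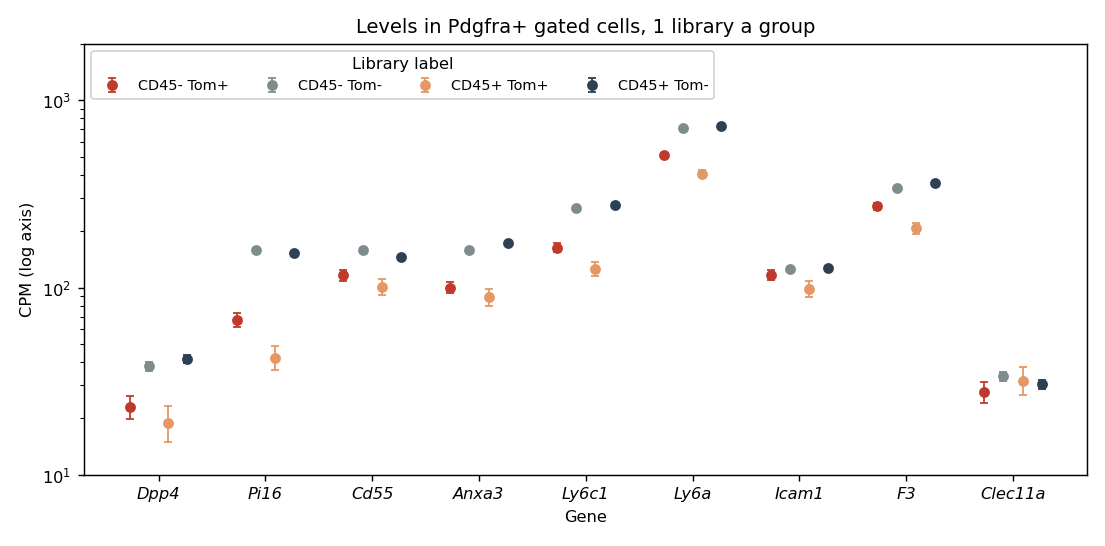
Levels of the 9 genes (x axis) in CPM on a log axis, summed over the gated cells of each library; each point is 1 library and each bar its exact Poisson interval. The Tom- points lie together and above the Tom+ points for Dpp4, Pi16, Cd55, Anxa3, Ly6c1, Ly6a and F3, Icam1 differs less, and Clec11a lies between 27.6 and 33.5 in all libraries.

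The promoters of 3 genes are shown because the genes stand for the 3 named progenitor states: Icam1 for committed preadipocytes, F3 for the regulatory cells and Dpp4 for interstitial progenitors. Each is the 250 bases before the RefSeq start on GRCm38.p6, the patch release of the mm10 build, 5′ to 3′ on the gene's strand. Capitals mark matches, on either strand, to the NF-kB-like letters GGANNTTCC, the AP-1-like letters TGANTCA or the TATA box letters TATAAA, which were chosen after the sequences were seen. The windows are chr9:21015690-21015939 on the plus strand for Icam1, chr3:121723287-121723536 on the plus strand for F3 and chr2:62412232-62412481 on the minus strand for Dpp4.
Icam1: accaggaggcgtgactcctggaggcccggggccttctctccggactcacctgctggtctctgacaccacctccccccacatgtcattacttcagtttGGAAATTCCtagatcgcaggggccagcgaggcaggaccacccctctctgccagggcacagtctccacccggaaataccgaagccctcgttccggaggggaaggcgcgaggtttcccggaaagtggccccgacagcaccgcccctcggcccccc
F3: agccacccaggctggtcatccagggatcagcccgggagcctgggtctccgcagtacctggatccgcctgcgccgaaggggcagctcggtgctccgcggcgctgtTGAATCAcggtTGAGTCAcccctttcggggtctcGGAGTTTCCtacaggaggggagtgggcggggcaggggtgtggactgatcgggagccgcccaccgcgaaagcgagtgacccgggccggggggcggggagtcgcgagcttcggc
Dpp4: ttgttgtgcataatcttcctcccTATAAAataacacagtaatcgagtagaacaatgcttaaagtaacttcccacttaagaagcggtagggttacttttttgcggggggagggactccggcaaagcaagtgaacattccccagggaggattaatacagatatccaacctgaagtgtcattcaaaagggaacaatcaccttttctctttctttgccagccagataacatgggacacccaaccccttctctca
The NF-kB-like letters occurred in 3.59% of the 32851 promoter windows of this length, the AP-1-like letters in 6.75% and the TATA box letters in 12.4%. Windows were found for 7 of the 9 genes, 8 windows in all. Of these, Icam1 and F3 held the NF-kB-like letters, F3 held the AP-1-like letters at 2 places, and Dpp4 and 1 of 2 Ly6c1 windows held the TATA box letters. The matches are descriptions of letters and not of binding.

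Tom+ and Tom- libraries were then compared within each CD45 label, to ask how the markers differ between gated cells of libraries sorted for and against the p16 reporter. The interstitial and Ly6 genes were lower in the Tom+ gate, Pi16 most of all. In the pair labelled CD45- the log2 ratio of Tom+ over Tom- was -1.25 (-1.38 to -1.13) for Pi16, -0.72 (-0.94 to -0.50) for Dpp4, -0.71 (-0.79 to -0.63) for Ly6c1, -0.66 (-0.77 to -0.56) for Anxa3, -0.48 (-0.53 to -0.43) for Ly6a and -0.46 (-0.56 to -0.36) for Cd55. The CD45+ pair had -1.85 (-2.07 to -1.64) for Pi16, -1.14 (-1.48 to -0.82) for Dpp4, -1.13 (-1.26 to -1.01) for Ly6c1, -0.96 (-1.11 to -0.81) for Anxa3, -0.84 (-0.91 to -0.77) for Ly6a and -0.53 (-0.67 to -0.38) for Cd55. The other genes moved less or unevenly. F3 had ratios of -0.33 (-0.40 to -0.27) and -0.79 (-0.89 to -0.69), Icam1 of -0.11 (-0.21 to -0.01) and -0.36 (-0.51 to -0.22), and Clec11a of -0.28 (-0.49 to -0.08) and 0.06 (-0.21 to 0.32).

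A gene was called lower or higher when its log2 ratio passed 0.3 in size, a limit of size and not a test. In the pair labelled CD45-, 7 of 9 genes were lower and 0 higher, while 19.3% of the 10052 genes at 5 or more CPM were lower and 11.5% higher. For the pair labelled CD45+, 8 of 9 were lower and 0 higher, against 19.8% and 16.6% of 10080 genes. The median ratio of the 9 genes was -0.48 and -0.84, and that of all tested genes -0.06 and -0.02. General stromal transcripts moved the same way: the 7 genes Col1a1, Col1a2, Col3a1, Dcn, Lum, Pdgfrb and Cd34, summed, had log2 ratios of -0.40 and -0.24. Relative to those 7 genes, an alternative added after the data were seen, Pi16 stood at -0.85 and -1.60, Dpp4 at -0.32 and -0.90, Ly6c1 at -0.31 and -0.89, Ly6a at -0.08 and -0.59, Cd55 at -0.06 and -0.28, and 3 and 6 of the 9 genes were lower. Gated cells in which those 7 genes made up less than 1% of UMIs were 6.58% and 9.68% of the Tom+ gates and 0.46% and 0.23% of the Tom- gates. Without these cells Pi16 was at -1.14 and -1.71 and Dpp4 at -0.64 and -1.02. Leaving out gated cells with at least 3 markers of a class other than plasma kept 105, 1100, 57 and 1238 cells and gave -1.42 and -1.22 for Pi16 and -0.67 and -0.81 for Dpp4, while in the pair labelled CD45+ Anxa3 came to -0.14, Ly6c1 to -0.29, Ly6a to -0.14 and F3 to -0.07. Leaving out gated cells whose barcode occurs in another library kept 250, 744, 128 and 968 cells and gave -1.09 and -1.57 for Pi16 and -0.74 and -1.07 for Dpp4. The part of plasma cell transcripts in these ratios was not tested, since only 18 and 16 Tom+ cells were left when cells with at least 3 plasma or other class markers were removed.

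**Figure D2:**
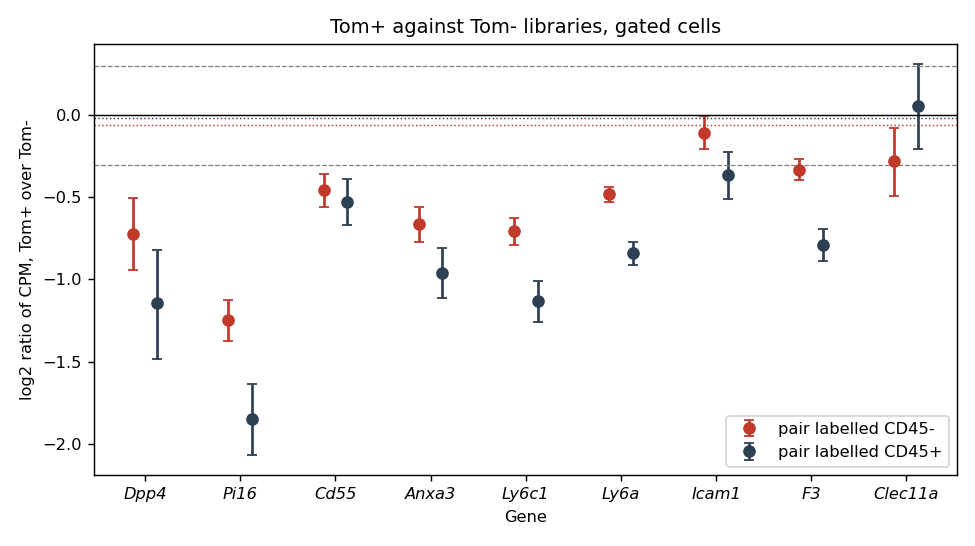
Log2 ratio of CPM, Tom+ over Tom-, for the 9 genes (x axis) in the gated cells of the pairs labelled CD45- and CD45+; bars are conditional exact intervals, dashed lines the limit of 0.3 and dotted lines the median of all tested genes. Pi16 lies lowest in both pairs, at -1.25 and -1.85, and Icam1 and Clec11a lie nearest to 0.

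The partners of these markers moved in the same pairs, as did general stromal genes. Over all tested genes 19.3% and 19.8% were lower and 11.5% and 16.6% higher. Of the 7 general stromal genes 6 and 4 were lower and 0 and 0 higher, with median ratios of -0.39 and -0.31. The part of this general shift in the list ratios was not tested. Of 12 genes of the interstitial list, 10 passed the minimum level, and 10 were lower in the pair labelled CD45- and 9 in the pair labelled CD45+. Sema3c, a secreted semaphorin, was at 82.4 and 84.1 CPM in Tom- and at 39.1 and 32.4 in Tom+. Efhd1, a calcium-binding protein of mitochondria, was at 14.1 and 16.0 in Tom- and at 4.62 and 3.29 in Tom+. Of 12 committed preadipocyte genes, 7 and 9 were lower and 0 and 0 higher, with median ratios of -0.44 and -0.82. Fabp4, the fatty acid carrier of adipocytes, was at 744.5 against 790.4 and at 881.8 against 850.6, so it differed little in either pair. Pparg, the master regulator of adipogenesis, had ratios of -0.41 (-0.68 to -0.14) and -0.84 (-1.27 to -0.43). Of 8 regulatory list genes, 7 were tested and 5 and 4 were lower and 0 and 1 higher, the higher one being Rspo1, a secreted activator of Wnt signalling, at 50.5 against 33.5 CPM. Of 8 fibro-inflammatory genes 3 and 5 were lower and 2 and 1 higher. The higher ones in the pair labelled CD45- were the chemokine genes Ccl2, at 831.7 against 666.9, and Cxcl2, at 129.3 against 93.6.

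Whether the markers mark the same or different cells was asked from co-detection in the thinned gated cells of each library, as the odds of finding a gene in cells with another gene over the odds in cells without it. Over 36 pairs, 4 had an odds ratio of at least 2 in every library, all among the interstitial and Ly6 genes. The share of other gene pairs past such limits was not computed, so counts of pairs describe these 36 alone. Dpp4 and Pi16 had odds ratios of 5.44, 6.12, 4.51 and 5.62. In CD45- Tom- 100 cells held both where 38.7 would be found if the genes were independent, and Pi16 was found in 55.2% of cells with Dpp4 against 16.7% without. In CD45+ Tom- it was 116 cells against 46.9, and 53.5% against 16.9%. The Tom+ libraries held only 9 and 4 such cells. The odds ratio of Dpp4 and Pi16 stayed above 1 in every library under all 12 alternatives, but its lowest value was under 2 in 4 of them: 1.29, in CD45+ Tom+, without thinning, 1.35 with cells thinned to 2000 UMIs, 1.19 without cells holding 3 markers of another class, and 1.40 when plasma markers were not counted. Ly6c1 and Ly6a had odds ratios of 21.0, 6.14, 5.62 and 6.45, Pi16 and Ly6a of 7.71, 6.75, 9.38 and 3.06, and Pi16 and Ly6c1 of 7.33, 4.30, 7.09 and 3.46. The lowest value over libraries for Ly6c1 and Ly6a fell to 1.24 without cells holding 3 markers of another class. For Pi16 and Ly6a it fell to 1.41 when plasma markers were not counted. Pi16 and Ly6c1 stayed at 3.01 or more under every alternative. Pi16 cells were nearly always Ly6a cells, at 92.5%, 96.3%, 94.1% and 91.8%, against 58.2%, 78.6%, 54.0% and 78.3% of cells without Pi16. Only 18.8%, 24.96%, 17.8% and 24.4% of Ly6a cells held Pi16. Ly6a was thus found in most Pi16 cells and also in most cells without Pi16, and was much wider than Pi16.

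Dpp4 also went with Cd55 and Anxa3 in the larger Tom- libraries. Dpp4 and Cd55 had odds ratios of 4.31 and 5.93 there, and of 2.80 and 1.07 in the Tom+ libraries. Dpp4 and Anxa3 had 4.79 and 4.70, against 2.87 and 1.27. The last value of each rests on 154 cells, 13 of them with Dpp4. Cd55 and Ly6a were nearly independent, at 0.94, 1.01, 0.94 and 0.94, although each went with Pi16.

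No pair was exclusive: 0 of 36 had an odds ratio of 0.5 or less in every library. In all, 16 pairs lay above 1 in every library, 7 below 1 in every library and 13 on both sides, with no share over other gene pairs to set beside them. Of those 7 pairs, 4 involved Icam1, with Dpp4, Pi16, Cd55 and Ly6c1, 2 involved F3, and the other was Ly6a with Clec11a. Cd55 and F3 had 0.66, 0.54, 0.61 and 0.53, and Dpp4 and F3 had 0.67, 0.51, 0.38 and 0.58. Icam1 had 0.95, 0.60, 0.78 and 0.72 against Dpp4 and 0.94, 0.57, 0.78 and 0.79 against Pi16. In CD45- Tom- 30.1% of Pi16 cells held Icam1, and 43.1% of cells without Pi16 did. Icam1 and F3, the markers of committed and regulatory cells, were close to independent in the Tom- libraries, at 1.07 and 0.99, and the F3 and Clec11a pair was at 0.86, 0.95, 1.26 and 0.98. Without thinning, the odds ratios of Icam1 against Pi16 were 1.78, 0.95, 2.03 and 0.86. Those against Dpp4 were 1.72, 1.02, 4.72 and 0.81. Icam1 with Cd55, at 1.196 to 3.255, and with Ly6c1, at 1.107 to 1.936, then lay above 1 in every library. So did Icam1 with F3, at 1.557 to 1.795. F3 with Cd55, F3 with Dpp4 and Ly6a with Clec11a stayed below 1 in every library. The separation of Icam1 was thus seen at equal depth only. At full depth it did not hold in every library for Pi16 and Dpp4, and it reversed for Cd55 and Ly6c1.

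**Figure D3:**
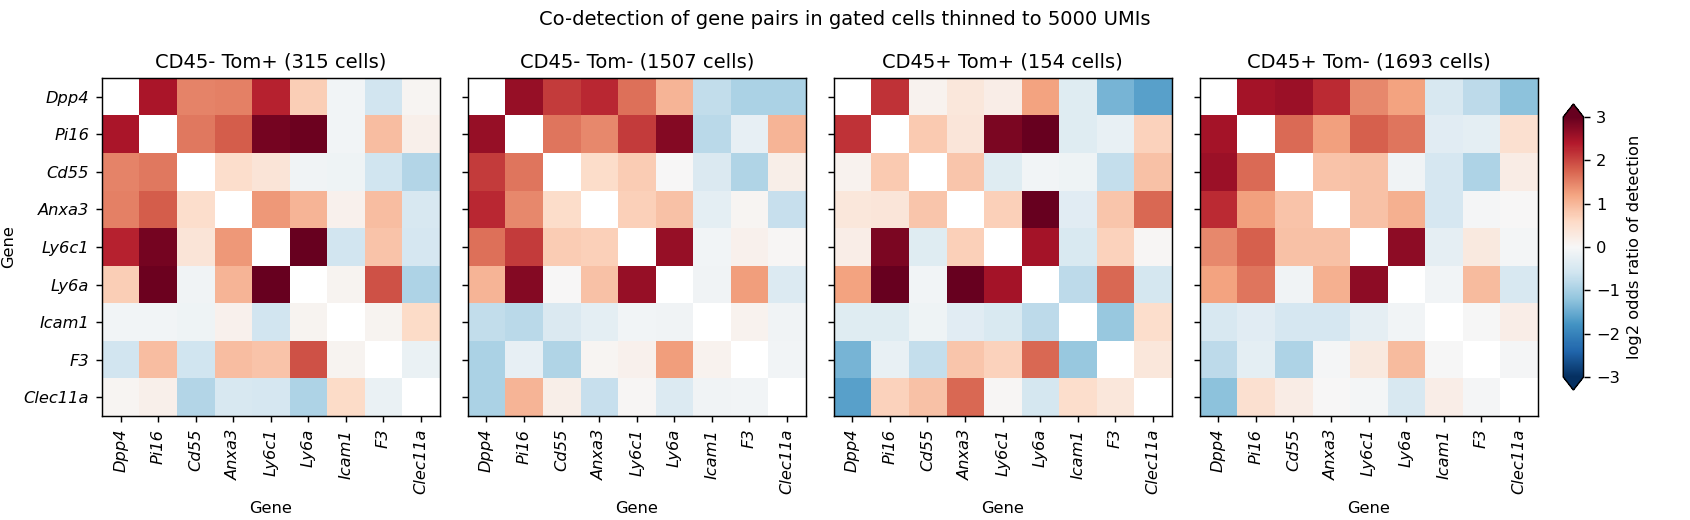
Log2 odds ratio of detection for each pair of the 9 genes (both axes) in gated cells thinned to 5000 UMIs, 1 panel a library, with red for pairs found together and blue for pairs found apart; the diagonal is blank. The block of Dpp4, Pi16, Cd55, Anxa3, Ly6c1 and Ly6a is mostly red, with Dpp4 and Pi16 between 4.51 and 6.12 as an odds ratio, and the Icam1 row is mostly pale or blue. The F3 and Clec11a rows are mixed, with Ly6a and F3 between 1.94 and 3.73 and single red squares such as Anxa3 with Clec11a, at 3.30 in CD45+ Tom+.

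The markers were also combined. The shares are detection rates at 5000 UMIs a cell and not sizes of cell states: Icam1 was found in 73.0 to 80.3% of gated cells at full depth, and cells with Dpp4 or Pi16 in which thinning left no Icam1 still held it at 55.3 to 78.4 CPM. Cells with Dpp4 or Pi16 and no Icam1 made up 10.8% (7.6 to 14.8), 18.0% (16.1 to 20.02), 12.99% (8.1 to 19.3) and 17.3% (15.5 to 19.2) of thinned gated cells. Cells with Icam1 and neither of the others made up 30.2% (25.1 to 35.6), 31.6% (29.2 to 34.0), 25.3% (18.7 to 32.9) and 30.2% (28.0 to 32.4). Cells with Icam1 together with Dpp4 or Pi16 made up 6.35%, 8.76%, 3.90% and 10.3%, and cells with none of the 3 genes 52.7%, 41.7%, 57.8% and 42.2%. The intervals of cells with Dpp4 or Pi16 and no Icam1 did not overlap between Tom+ and Tom- in the pair labelled CD45- and did in the pair labelled CD45+, while those of cells with Icam1 and neither of the others overlapped in both. These intervals count the cells of 1 library each and hold no spread between libraries. Their overlap is therefore not read as a result about Tom+ against Tom-. Counting Dpp4 or Pi16 regardless of Icam1 gave 17.1%, 26.7%, 16.9% and 27.6%. Gated cells with no member detected were 7.94% and 11.0% in Tom+ and 1.46% and 1.65% in Tom-.

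The other genes were then read in the cells split by Dpp4 or Pi16 against Icam1. Of the 6 members the split did not use, Anxa3, Ly6c1 and Ly6a were higher in Dpp4 or Pi16 cells in every library and Cd55 in 3. The log2 ratio of Dpp4 or Pi16 cells over Icam1 cells was 1.95, 2.62, 0.19 (-0.22 to 0.59) and 2.42 for Cd55, 2.29, 2.07, 2.07 and 2.18 for Anxa3, 2.90, 1.73, 1.96 and 1.52 for Ly6c1, and 1.27, 0.87, 1.35 and 0.81 for Ly6a. F3 was lower in the Dpp4 or Pi16 cells of the Tom- libraries, at 258.0 against 408.9 and 274.2 against 386.1 CPM, and higher in CD45- Tom+, at 413.8 against 258.3. Clec11a also went both ways, at -0.45 (-1.28 to 0.32), 0.59 (0.36 to 0.83), 0.81 (0.06 to 1.56) and 0.33 (0.10 to 0.56). The Tom+ values rest on 34 and 20 cells with Dpp4 or Pi16.

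The lists were chosen with earlier results of these data known, so their counts in this split are a description and no independent check. Interstitial list genes were higher in the Dpp4 or Pi16 cells in 9 of 9, 11 of 11, 9 of 10 and 11 of 11 tested, where 25.3%, 12.8%, 26.8% and 12% of all tested genes were. Their medians in the Tom- libraries were 2.95 and 2.70, against -0.01 and 0.00 over all genes. Sema3c was at log2 ratios of 5.05 and 5.00 there, and Ackr3, a scavenging chemokine receptor, at 2.96 and 2.74. Committed preadipocyte genes were higher in the Icam1 cells in 10 of 12, 11 of 12, 4 of 11 and 11 of 12 tested, where 29.4%, 14.3%, 33.6% and 12.9% of all genes were. In CD45+ Tom+ the list went the other way: 6 of 11 genes were higher in the Dpp4 or Pi16 cells, its median was 0.36, and its 4 of 11 higher in Icam1 cells is close to the share of all genes. Examples in the Tom- libraries were Fabp4 at -1.31 and -1.14, Fgf10, a growth factor of preadipocytes, at -1.81 and -1.19, and Lpl, the lipase that frees fatty acids, at -0.83 and -0.72. The regulatory list did not follow this split, with 2 and 3 of 7 genes higher in Icam1 cells of the Tom- libraries and 1 and 0 higher in Dpp4 or Pi16 cells. Of 8 fibro-inflammatory genes, 4 and 5 were higher in Icam1 cells of the Tom- libraries and 0 and 0 in Dpp4 or Pi16 cells. Their medians there were -0.21 and -0.34. In the Tom+ libraries 4 and 3 were higher in Icam1 cells and 2 and 3 in Dpp4 or Pi16 cells. In the Tom- libraries Ccl2 was lower in the Dpp4 or Pi16 cells, at -0.92 and -1.49, while Ptx3 went both ways, at 0.22 and -0.33.

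**Figure D4:**
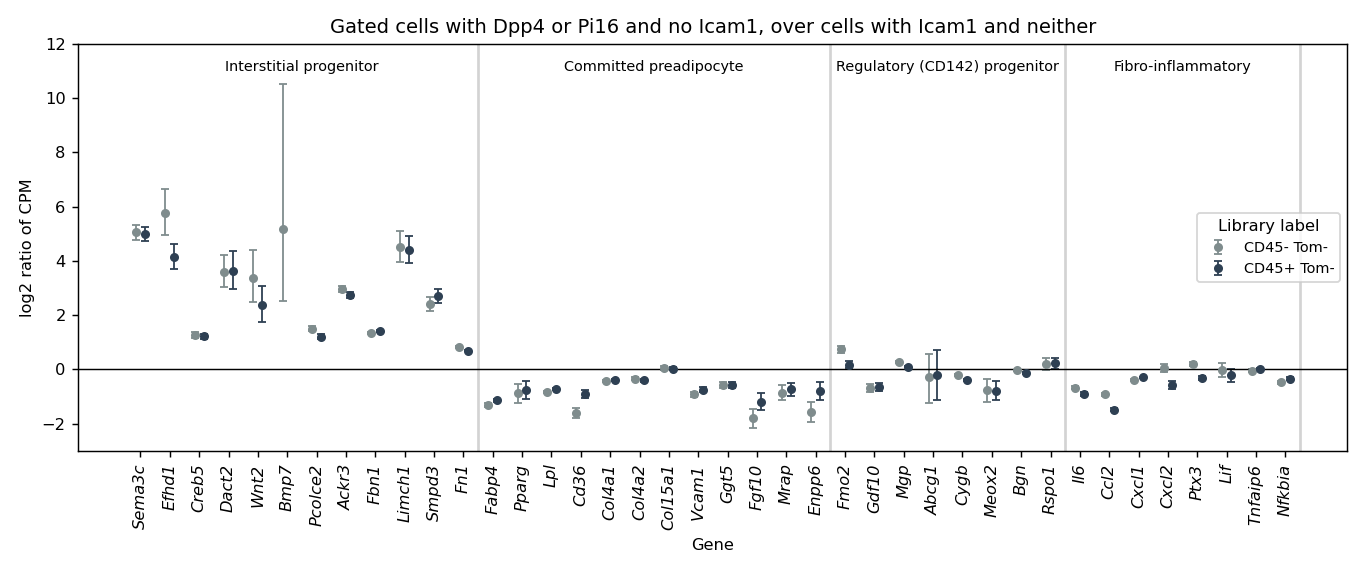
Log2 ratio of CPM in gated cells with Dpp4 or Pi16 and no Icam1 over cells with Icam1 and neither, for the genes of 4 lists (x axis) in the Tom- libraries; bars are conditional exact intervals and ratios without a finite interval are left out. Interstitial genes lie above 0, with Sema3c at 5.05 and 5.00, and committed preadipocyte genes lie below 0 except Col15a1.

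The genes most like each member over gated cells were taken by the mean over libraries of Pearson's r of log counts among 2859 genes. As a description, they repeat the groups for Dpp4, Pi16, Ly6c1 and Ly6a but not for Icam1 and F3. The 3719 cells share libraries and differ in depth. Dpp4 was most like Sema3c (0.61) and then Pi16 (0.49), and Pi16 was most like Sema3c (0.52) and Ackr3 (0.50). Cd55 was most like Fndc1 (0.53) and Cd34 (0.53), and Anxa3 most like the protease gene Prss23 (0.53). Ly6c1 and Ly6a were most like each other (0.69). F3 was most like Lpl (0.48), a gene of the committed list, and then Cygb (0.47), of the regulatory list, and Col4a1 (0.42), of the committed list, was also among its 5. Icam1 had weak partners, led by Nfkbia (0.23), Birc3 (0.23) and Tnip1 (0.22), and so had Clec11a, led by Mgp (0.24) and Col1a1 (0.24). None of the 5 genes most like Icam1 was on the committed list, and Nfkbia was on the fibro-inflammatory list.

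Outside the gate the same genes were read in cell classes set by marker genes, each class with at least 20 cells in the library. F3 was the only member highest in gated progenitors in all 4 libraries, and mesothelial-like cells came next at 111.4, 137.4, 82.9 and 106.2 CPM. Clec11a was highest in mesothelial-like cells, at 40.3, 49.1, 40.9 and 45.4, with the gate next. Dpp4 was also higher outside the gate: mesothelial-like cells had 136.5 (124.0 to 149.9), 196.7 (189.4 to 204.1), 163.5 (145.6 to 183.1) and 194.1 (186.8 to 201.5), and dendritic-like cells, led by Xcr1 and Clec9a, had 127.0 (99.9 to 159.2) in CD45- Tom- and 203.4 (170.1 to 241.4) in CD45+ Tom-. The gate limits Upk3b, Msln and Ptprc but did not remove all mesothelial signal. At least 3 mesothelial markers were found in 19.4%, 4.81%, 23.2% and 5.44% of gated cells, in library order. The part of such cells in the Dpp4 of the gate was not tested.

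The remaining members were highest in blood vessel or immune cells. Ly6c1 was highest in vascular endothelial-like cells, at 996, 1316, 648 and 1395 CPM, and Ly6a there too, at 744, 772, 554 and 792. The cells had been stained for CD31, an endothelial protein, but no gate on it is given in the labels. Cd55 was highest in mast-like cells, at 723, 692, 639 and 720, and Anxa3 in macrophage-like cells, at 272, 359, 243 and 354. Icam1 was highest in neutrophil-like cells of the Tom- libraries, at 195 and 208, and in vascular endothelial-like cells of the Tom+ libraries, at 286 and 188.

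Among classes with at least 20 cells Pi16 was highest in the gate in 3 libraries, but neutrophil-like cells held it too. In CD45- Tom+ that class had 18 cells, under the minimum. Its Pi16 was at 123.5 (69.1 to 203.7) CPM, found in 9 of the 18, against 67.0 in the gate. In the other libraries neutrophil-like cells had 113.4 (83.0 to 151.2), 95.7 (43.8 to 181.7) and 109.9 (83.0 to 142.7) CPM in CD45- Tom-, CD45+ Tom+ and CD45+ Tom-, with 82, 21 and 119 cells. Pi16 was found in 33 of 82, 7 of 21 and 36 of 119 of these cells, with at most 4 UMIs in 1 cell. At 2000 UMIs a cell, where depth no longer differs, it was detected in 25.6%, 14.3% and 20.2% of neutrophil-like cells against 13.2%, 5.81% and 13.7% of gated cells, and at most 0.41% of T-like cells. In 1 mast-like cell of CD45- Tom- there were 23 of the 24 Pi16 UMIs of its class.

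**Figure D5:**
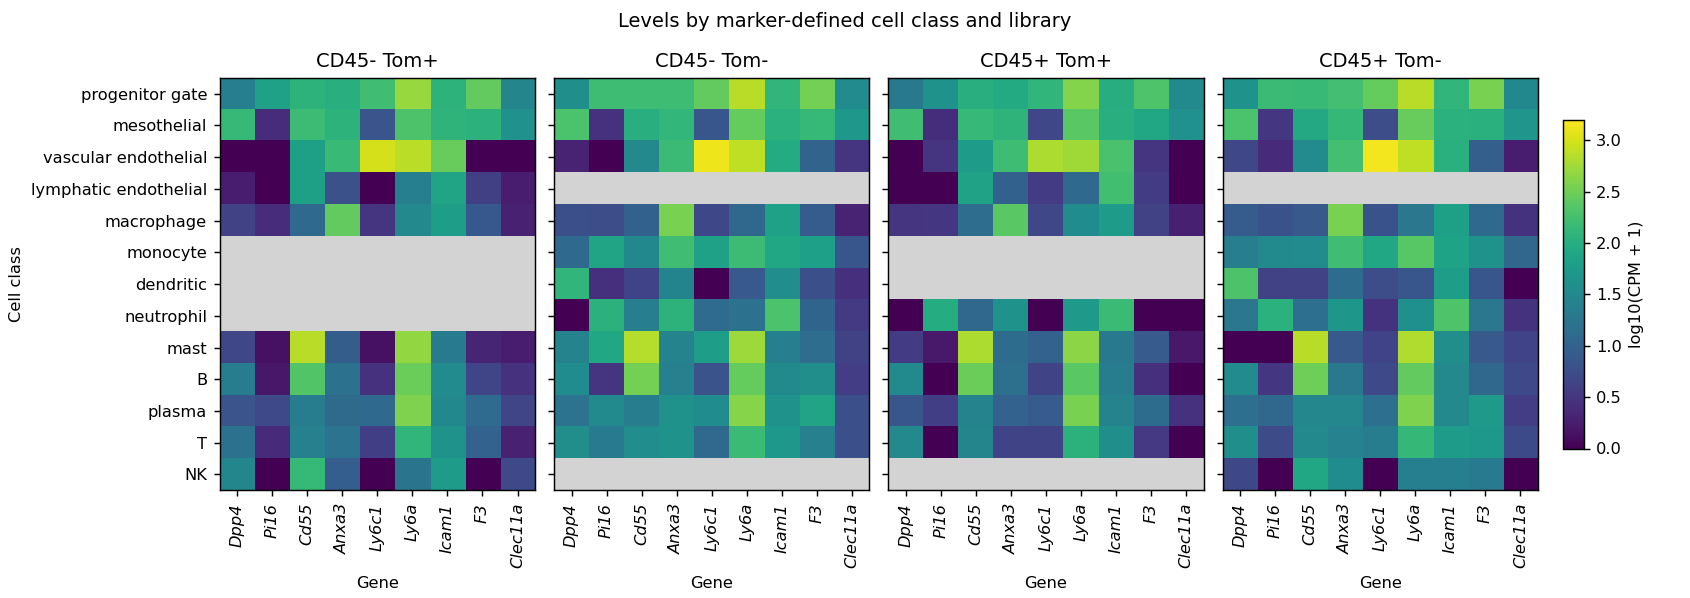
Log10 of CPM plus 1 for the 9 genes (x axis) in marker-defined cell classes (y axis), 1 panel a library; grey marks classes with under 20 cells. Among the classes not grey, F3 is brightest in the progenitor row, as is Pi16 outside CD45+ Tom+. Ly6c1 is brightest in vascular endothelial-like cells, Cd55 in mast-like cells and Anxa3 in macrophage-like cells, and Dpp4 is brighter in mesothelial-like cells than in progenitors.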

How the data were processed

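Single-cell RNA was measured with 10x Genomics 3' libraries in 4 sorted fractions, 1 library each. The authors aligned reads to mm10 with Cell Ranger 3.0.2 and deposited counts (UMIs per gene and barcode) without normalization. As in the study, a barcode was kept if it had more than 1000 but fewer than 7000 genes and a mitochondrial share below 8% (14982 of 33567). Per library, 0.8% of cells per 1000 barcodes with the highest Scrublet scores (scanpy 1.11.5) were left out as doublets, 1104 in all, since Scrublet's own threshold marked 100. The library totals were 139397501, 110410319, 64083756 and 136459745 UMIs in the order CD45- Tom+, CD45- Tom-, CD45+ Tom+, CD45+ Tom-.

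UMIs of a gene were summed over gated cells and scaled to 1000000 UMIs (CPM), with exact Poisson intervals, conditional exact intervals for ratios and exact binomial (Clopper-Pearson) intervals for shares. Cells were thinned to 5000 UMIs for co-detection, leaving out 50 shallower gated cells, and 0.5 was added to each cell of an odds ratio table. Classes needed at least 3 of their markers and at least 50% of them, were not clustered, and carry names ending in -like. The code was tested on simulated data. The members, gene lists and rules were chosen with earlier results of these data known. Named genes were the members, their near copies, gate and list genes, and the 5 genes most like each member. The study's Wilcoxon test over cells was not used, since cells are not replicates. Promoters came from RefSeq. Alternatives changed the gate, filters, doublets, thinning, limits and scaling.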

Additional observations from a re-analysis of the deposited data

How the results depend on the processing

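The Tom+ values rest on 319 and 155 gated cells against 1537 and 1708 in Tom-, and with 1 library a group no spread between replicates is known. No paired analysis was possible because each group is 1 library and no test was made. Over the alternatives, 5 recomputed log2 ratios changed the sign of a gene called lower. F3 in the pair labelled CD45- came to 0.10 without gated cells that held 3 markers of a class other than plasma, and to 0.070 relative to the 7 stromal genes. For the pair labelled CD45+, leaving out cells with 3 markers of any other class, which kept 16 Tom+ cells, gave 0.0069 for Cd55, 0.64 for Anxa3 and 0.43 for Icam1. The cause of these shifts was not tested.

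The number of members lower in the pair labelled CD45- was 7, and was 3 relative to the stromal genes and 4 with a limit of 0.5. In the pair labelled CD45+ it was 8, and was 2 without cells holding 3 markers of any other class and 3 when plasma markers were not counted. The number higher there was 0, and was 1 without barcodes found in other libraries, 2 without cells holding 3 markers of another class, and 1 relative to the stromal genes. Pairs with an odds ratio of at least 2 in every library numbered 4 thinned and 10 without thinning, of which 3 were shared; Dpp4 with Pi16 was not among the 10. With a wider margin between classes 2 members, not 1, were highest in the gate in CD45+ Tom+. The alternatives on stromal genes, and the one leaving out classes other than plasma, were chosen after seeing the data. Pi16 and Dpp4 kept their direction in both pairs under all 14 alternatives each. Dpp4 in the pair labelled CD45+ went from -1.14 to -0.17, short of the limit, without cells holding 3 markers of any other class.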
